A study of Mus musculus with 8 samples.

Results

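Ednrb, Adora3 and Niacr1 encode G protein-coupled receptors of the rhodopsin class and are 3 of the 11996 genes in the deposited table of macrophages given IL-10. They were chosen by name, as receptor genes whose listed signal was much higher with IL-10 in at least 1 genotype. The IL-10 ratios given below therefore selected the genes, and they are a description without a test. The table was made from 8 samples of mouse peritoneal macrophages of the C57BL/6 strain, elicited by thioglycolate, an irritant that draws these cells into the peritoneal cavity, and left on plastic for 24 h. The 4 groups of 2 samples were Ptpn1-/- cells with IL-10 at 100 ng/ml for 4 h, Ptpn1-/- cells with mock treatment, wild-type cells with the same IL-10 treatment and wild-type cells with mock treatment. All groups thus share the strain, the irritant and the adhesion step, and the labels give no age or sex and do not say whether animals were pooled or whether the same mice gave cells for both treatments.

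The cytokine IL-10 restrains inflammation, and in macrophages its receptor activates the kinases JAK1 and TYK2 and through them STAT3. PTP1B, the product of Ptpn1, is a tyrosine phosphatase that acts on several receptors and on JAK kinases. Ednrb encodes the endothelin B receptor, which binds the endothelin peptides, takes part in their clearance by endothelial cells, and is required for the development of melanocytes and enteric neurons. Adora3 encodes the A3 adenosine receptor, which lowers cyclic AMP through inhibitory G proteins and is known for its part in mast cell activation in rodents. Niacr1, now called Hcar2, encodes the receptor for nicotinic acid and the ketone body beta-hydroxybutyrate, which also couples to inhibitory G proteins and is found on adipocytes, macrophages and neutrophils.

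Because the 3 genes were chosen as a set that was high with IL-10, the stretch before the start of each gene is shown where a sequence was at hand, with the STAT-type palindromes and the core of the macrophage factor PU.1 as the motifs looked for. The RefSeq promoter table (GRCm38.p6) matched 2 of the 3 genes, and Niacr1 had no entry there. The 250 bases before the RefSeq start follow, 5′ to 3′ on the gene's own strand, for Ednrb at chr14:103843702-103843951 (minus strand) and for Adora3 at chr3:105904171-105904420 (plus strand), and capitals mark any match to a motif.
Ednrb: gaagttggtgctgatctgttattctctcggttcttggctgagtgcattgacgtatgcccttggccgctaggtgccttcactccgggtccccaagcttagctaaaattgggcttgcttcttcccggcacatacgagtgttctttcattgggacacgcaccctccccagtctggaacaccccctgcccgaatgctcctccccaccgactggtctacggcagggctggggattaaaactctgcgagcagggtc
Adora3: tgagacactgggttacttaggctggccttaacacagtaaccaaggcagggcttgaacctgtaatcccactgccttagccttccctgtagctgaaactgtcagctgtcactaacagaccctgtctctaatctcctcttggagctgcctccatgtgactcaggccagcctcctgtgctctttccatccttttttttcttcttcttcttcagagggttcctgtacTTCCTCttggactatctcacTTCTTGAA

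Motifs were searched on both strands. The palindrome TTCNNNGAA, a form bound by STAT3 and other STAT factors, was in neither stretch and in 7.02% of all 32851 promoter stretches of the same length. The form with a shorter spacer, TTCNNGAA, was found in Adora3 as TTCTTGAA, at positions -8 to -1 before the start, and in 7.17% of all stretches. The same palindrome with a spacer of 4 bases was in neither and in 5.85% of all. The PU.1 core GAGGAA was found in Adora3 on the reverse strand, as TTCCTC at positions -28 to -23, and in 23.3% of all stretches. These matches describe letters, and an absent match says only that the letters are not in this window. GC content was 56.8% for Ednrb and 48.8% for Adora3, with a median of 52.4% over all stretches.

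The rows of the table carry mm9 coordinates, which were not converted to the build of the promoter table. Ednrb (ENSMUSG00000022122) lies on mm9 chromosome 14, 104213842 to 104243390, minus strand. Adora3 (ENSMUSG00000000562) lies on chromosome 3, 105673776 to 105711271, plus strand, and Niacr1 (ENSMUSG00000045502) on chromosome 5, 124313581 to 124315518, minus strand. The Ednrb stretch printed above lies, in GENCODE M21, within an intron of a longer Ednrb transcript. The Adora3 row spans 37496 bases, the same length as transcript Adora3-202 in GENCODE M21, whose start lies far upstream of the RefSeq start used for the sequence above. In that annotation 779 of the 3729 exon bases of Adora3 are shared with exons of Tmigd3 on the same strand, and no row of the table is named Tmigd3. How reads in the shared bases were assigned is not given in the sources used here, so the signal listed for Adora3 can include reads of Tmigd3.

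Every value is the authors' signal for a group, printed with no SD or n, since the table used here has 1 column per group. No source used here states how the samples of a group were combined. The columns have equal totals, and very high genes share values between columns: of 46 genes with a mean of at least 50000 units, 40 had the same value in 2 or more columns. Each of the 3 receptor genes had a different value in every column. No difference could be set against the spread between samples, no p-value is given, and sequencing depth is unknown. A log2 ratio was taken after adding 26.7 units, 1 millionth (1 ppm) of a column's total, to both signals, which understates the ratios of low genes, and a ratio of at least 2-fold is used as a limit of size. Of the 11996 rows, 11400 had a mean signal of at least 26.7 units and were compared. All 3 receptor genes passed this filter, but Niacr1 did so only through the knockout with IL-10, at 128.5 units. Its other groups stood at 10.5 units (knockout with mock), 34 (wild type with IL-10) and 11 (wild type with mock). Its passing therefore says nothing of its response or of its difference between genotypes with IL-10.

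Ptpn1 itself was listed at 5391.5 units in Ptpn1-/- cells with IL-10 and 3836.5 in Ptpn1-/- cells with mock, against 6736 and 4960.5 units in wild-type cells with IL-10 and with mock. Its signal was lower in the knockout under both treatments but was not lost, and the deleted part of the gene is not given in the sources used here. Macrophage markers were present in all groups, with a summed signal over 8 genes of 460756 and 460680 units in the knockout with IL-10 and with mock, against 553540 and 645696 units in wild type. The lower sum in the knockout was that of Lyz2, which encodes lysozyme, at 136852 units in both knockout groups against 272813 and 362618 units in wild type. The other 7 markers summed to 323905 and 323828 units in the knockout and, the other way, to 280727 and 283078 units in wild type. This higher sum in the knockout was that of Cd68, at 272612 units in both knockout groups and 226524 in both wild-type groups. Fcgr1, an Fc receptor gene, was also higher in the knockout, at 3888 and 2531.5 units against 2547 and 1453 in wild type. So was Cd14, at 3075 and 2570.5 units against 2712 and 2299. Itgam was lower in the knockout, at 17992 and 17324 units against 20763 and 22587, as was Mertk, at 2564.5 and 2761.5 against 3082 and 3188. Emr1, which encodes F4/80, lay between 10088.5 and 11367 units and Csf1r, the receptor for macrophage growth factor, between 13685 and 16138. Markers of mesothelial cells and fibroblasts were also present, and their summed signal over 9 genes was 20230.5 and 20353.5 units in the knockout with IL-10 and with mock, against 32346 and 33733.5 units in wild type. The libraries are of whole cultures, so fewer cells of a type and less RNA per cell cannot be told apart.

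Ednrb had the highest signal of the 3 genes in every group and the largest IL-10 log2 ratio in both genotypes, although without a pseudocount that of Niacr1 in the knockout was larger, at 3.61 against 3.23. It was listed at 6577 units in Ptpn1-/- cells with IL-10 and 700.0 with mock, and at 4058 units in wild-type cells with IL-10 and 426 with mock. Both IL-10 groups stood far above both mock groups, and within each treatment the knockout stood above wild type. The log2 ratio of IL-10 over mock was 3.18 in the knockout and 3.17 in wild type, the 4th and 3rd highest of 11400 genes. As plain ratios of the listed signals these are 9.40 and 9.53. The difference between the genotypes' log2 ratios was 0.01.

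Adora3 was listed at 374 units in Ptpn1-/- cells with IL-10 and 53 with mock, and at 190.0 units in wild-type cells with IL-10 and 37 with mock. The order of the groups was the same as for Ednrb at a much lower signal. Its log2 ratio of IL-10 over mock was 2.33 in the knockout and 1.77 in wild type, the 10th and 15th highest, or plain ratios of 7.06 and 5.14. The knockout's log2 ratio exceeded that of wild type by 0.56, below the limit of 2-fold.

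Niacr1 was listed at 128.5 units in Ptpn1-/- cells with IL-10 and 10.5 with mock, and at 34 units in wild-type cells with IL-10 and 11 with mock. The knockout with IL-10 thus stood apart from the other 3 groups, and both mock groups lay near the low end of a table whose lowest value is 1. Its log2 ratio of IL-10 over mock was 2.06 in the knockout, the 16th highest, and 0.69 in wild type, the 127th highest, with plain ratios of 12.2 and 3.09. The knockout's log2 ratio depended strongly on the pseudocount, at 3.61 with none and just at the limit with 4 ppm. In wild type it did not reach 2-fold with the pseudocount, whereas it did without it. The knockout's log2 ratio exceeded that of wild type by 1.37, or by 0.75 with a pseudocount of 4 ppm, where the limit is no longer reached.

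**Figure D1:**
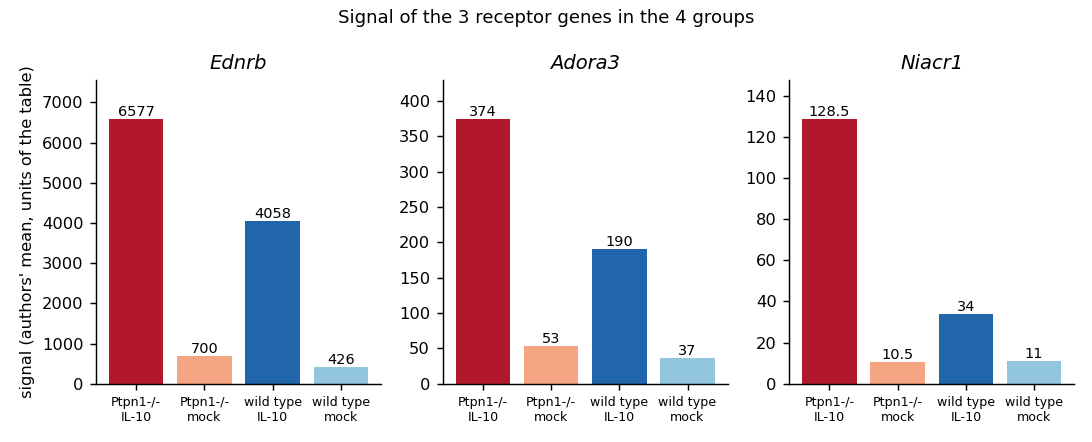
Bars give the authors' signal per group of Ednrb, Adora3 and Niacr1 (vertical axis, units of the table, a separate linear scale from 0 for each gene) in Ptpn1-/- and wild-type macrophages with IL-10 or mock. Each gene is highest in the knockout with IL-10, at 6577, 374 and 128.5 units, and the bars carry no error because the table has 1 value per group.

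Of the 3 genes, all 3 were at least 2-fold higher with IL-10 in the knockout, where 0.877% of all compared genes were, and 2 of 3 in wild type, where 0.465% were. These counts follow from how the genes were chosen. Genes at least 2-fold lower made up 0.0175% in each genotype. The difference between the genotypes' log2 ratios reached 2-fold for 1 of the 3, Niacr1, and for 0.0965% of all compared genes, and it comes from the same columns as the choice.

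The comparison of genotypes under mock treatment was not used to choose the genes, though it shares the mock columns. Ednrb stood at 700.0 units in the knockout and 426 in wild type, a log2 ratio of 0.68, the 110th highest of 11400. Adora3 stood at 53 and 37 units, a log2 ratio of 0.32, and Niacr1 at 10.5 and 11 units, a log2 ratio of -0.02. None of the 3 reached 2-fold, against 0.325% of all genes higher and 0.105% lower. With IL-10 the log2 ratios of knockout over wild type were 0.69 for Ednrb, 0.89 for Adora3 and 1.35 for Niacr1. Niacr1 was thus the 1 of 3 past 2-fold, where 0.596% of all genes were higher and 0.0789% lower by that much. With a pseudocount of 4 ppm its log2 ratio was 0.74 and no longer past 2-fold.

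Levels of different genes were compared per kilobase of the longest GENCODE M21 transcript. With IL-10, Ednrb stood at 1601 units per kilobase in the knockout and 988 in wild type, above 91.9% and 87.1% of the 11797 genes with a known length. Adora3 stood at 158 and 80.2 units per kilobase, above 47.4% and 32.2% of genes, and Niacr1 at 66.6 and 17.6, above 28.4% and 11.3%. Under mock the order of the 3 genes was the same in both genotypes. Ednrb stood above 49.4% of genes in the knockout and 37.2% in wild type, Adora3 above 13.8% and 10.1%, and Niacr1 above 3.37% and 3.13%. Whether the deposited signal was already divided by length is not given in the sources used here.

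Among ligands and processing enzymes of the endothelin system, neither of the kept genes, Ece1 and Ece2, came near 2-fold. At most 0.877% of all compared genes reached 2-fold in a direction, so this too is near the background. Edn1, which encodes endothelin-1, was listed at 23 and 20 units in the knockout with IL-10 and with mock and at 14 and 15 units in wild type, below the filter. Ece1, an enzyme that cleaves the endothelin precursors, stood at 434 and 363 units in the knockout and 397 and 330 in wild type, with log2 ratios of 0.24 and 0.25. Ece2, a related enzyme, had log2 ratios of -0.06 in knockout cells and 0.00 in wild type. Edn2, Edn3, the other endothelin receptor gene Ednra and Mme are not among the names of the table, so 4 of the 8 genes of this list were seen.

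In the adenosine system Slc28a2, which encodes a sodium-driven transporter that takes purine nucleosides into cells, was the only kept gene besides Adora3 past 2-fold in any of the 4 pairwise comparisons. It was listed at 7402 units in the knockout with IL-10 and 1446.5 with mock, and at 3704 units in wild type with IL-10 and 933 with mock. The order of the groups was that of Adora3, and the log2 ratios of IL-10 over mock were 2.33 in the knockout and 1.96 in wild type. The other receptors of the family found did not share these IL-10 ratios. Adora2a, whose receptor raises cyclic AMP, stood at 104 and 132.5 units in the knockout with IL-10 and with mock and at 108 and 112 in wild type. Adora2b, whose receptor also raises cyclic AMP and has a lower affinity for adenosine, stood at 167 and 129.5 units in the knockout and 85.5 and 101 in wild type, with log2 ratios of 0.31 and -0.19. Adora1 is not among the names of the table.

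Of the enzymes and equilibrative carriers, none of the kept genes reached 2-fold. At most 0.877% of all compared genes did so in a direction, so this is near the background and not particular to these genes. Entpd1, which encodes CD39 and starts the breakdown of extracellular ATP, had log2 ratios of -0.28 in knockout cells and -0.21 in wild type. Pnp, a phosphorylase of purine nucleosides, had 0.71 and 0.59, and Slc29a3, a nucleoside carrier of lysosomes, -0.40 and -0.35. Over the 11 kept genes of the list without Adora3, the median log2 ratio was -0.16 in the knockout and -0.04 in wild type, where that of all compared genes was -0.01 and 0.00. Entpd3, an enzyme of the same class as Entpd1, lay below the filter at 49 and 7 units in the knockout and 20 and 1.5 in wild type, and is named here with its values known.

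**Figure D2:**
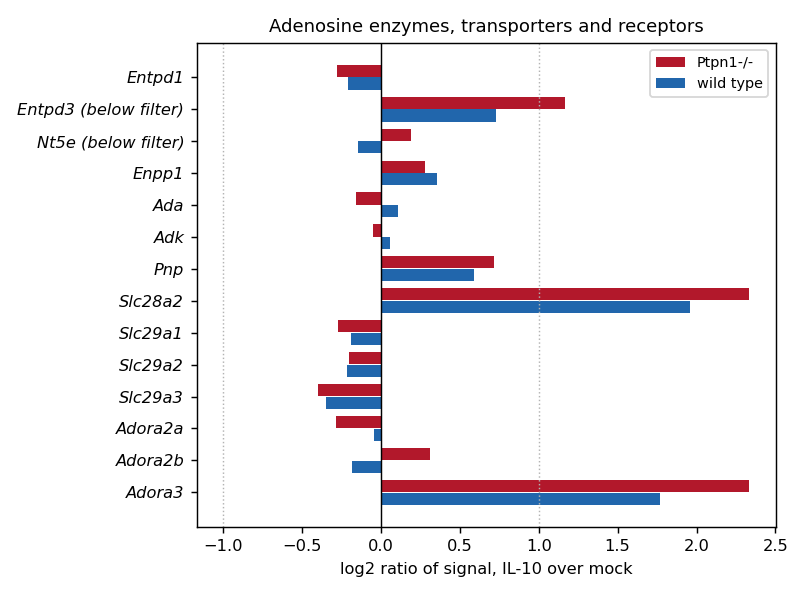
Bars give the log2 ratio of signal with IL-10 over mock (horizontal axis) in Ptpn1-/- and wild-type macrophages for genes of the adenosine system, with dotted lines at 2-fold in either direction. Adora3 and Slc28a2 lie beyond 2-fold in both genotypes, and Entpd3 does in the knockout with a mean signal below the filter.

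Most genes listed as receptors for metabolites and fatty acids were not among the names of the table. Of the 11 on this list 4 were found, Niacr1 itself among them. O3far1 lay below the filter, at 17.5 and 20 units in the knockout with IL-10 and with mock and 12 and 16.5 in wild type. Gpr35, an orphan receptor for which kynurenic acid is a proposed ligand, stood at 1765 and 1147.5 units in the knockout with IL-10 and with mock and at 1714 and 1146 in wild type, log2 ratios of 0.61 and 0.57. Gpr84, a receptor for medium-chain fatty acids, stood at 144.5 and 116 units in the knockout and 120.5 and 62 in wild type, log2 ratios of 0.26 and 0.73. Gpr81, the lactate receptor gene next to Niacr1, is not among the names. In skin, nicotinic acid acts through Niacr1 to release prostaglandins. Among 9 kept genes of prostanoid synthesis none reached 2-fold with IL-10. Of all compared genes 0.877% were that much higher in the knockout and 0.465% in wild type, so this count of 0 is near the background. Pla2g4a, the phospholipase that frees arachidonic acid, stood at 608 and 299 units in the knockout and 482.5 and 312 in wild type, log2 ratios of 0.96 and 0.59, and the cyclooxygenase gene Ptgs1 had log2 ratios of 0.57 and 0.64.

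In the lists of machinery that these receptors share, no kept gene reached 2-fold in any of the 4 pairwise comparisons. Few genes of the table did, at most 0.877% in a direction, so these counts of 0 are near the background and are not particular to the lists. Of 19 kept G protein subunit genes none did, and their median IL-10 log2 ratio was -0.09 in knockout cells and -0.03 in wild type. Gnai2, the main inhibitory alpha subunit of leukocytes, was listed at 15480 units in the knockout with IL-10 and 15251 with mock, and at 15480 units in both wild-type groups, a value shared between columns as for other high genes. The largest differences in this list were those of Gna15, an alpha subunit of blood cells, with an IL-10 log2 ratio of -0.51 in knockout cells and -0.31 in wild-type cells, and of Gng10, with 0.40 for knockout over wild type under mock. Of 29 kept effector and cyclic AMP genes none reached 2-fold. Pde4d, a phosphodiesterase of cyclic AMP, stood at 58 and 22 units in the knockout with IL-10 and with mock and at 82 and 33.5 in wild type, log2 ratios of 0.80 and 0.85. Plcb1, a phospholipase C, had a log2 ratio of -0.61 for knockout over wild type under mock. The effector list had median log2 ratios for IL-10 of -0.12 in knockout cells and -0.15 in wild type. Among 19 kept genes of desensitization and RGS proteins, which end G protein signals, none reached 2-fold either. Arrb1, which encodes beta-arrestin 1, had IL-10 log2 ratios of -0.59 in knockout cells and -0.43 in wild type, and Rgs2 had -0.57 and -0.18.

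The 3 receptor genes were set beside 86 other genes of G protein-coupled receptors or of that naming that passed the filter. With the pseudocount of 1 ppm, the 3 had the highest IL-10 log2 ratios in the knockout. Niacr1 was the lowest of the 3, at 2.06, and the highest of the 86 stood at 1.96. This order follows largely from how the 3 were chosen, and the 86 were joined into a set after values were seen. With 4 ppm Niacr1 was just at the limit of 2-fold, so its place above all 86 may not hold there. Of the 86, 5 were at least 2-fold higher with IL-10 in the knockout and 4 in wild type, where 0.877% and 0.465% of all compared genes were, and none was 2-fold lower in either. The median of the 86 was -0.05 in the knockout and 0.01 in wild type. In wild type, Niacr1 at 0.69 lay below several of them.

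P2ry13, an ADP receptor, was listed at 190.5 units in the knockout with IL-10 and 29 with mock, and at 78.5 units in wild type with IL-10 and 25.5 with mock, log2 ratios of 1.96 and 1.01. As with Niacr1, the mock groups were close and the knockout with IL-10 was the highest group. Ccr1, a chemokine receptor gene, stood at 8886 and 3227 units in the knockout with IL-10 and with mock and at 5871 and 2275.5 units in wild type, log2 ratios of 1.45 and 1.36. Ltb4r1, a receptor for leukotriene B4, stood at 199 and 82.5 units in the knockout and 74 and 36.5 in wild type, log2 ratios of 1.05 and 0.67. Gpr146 had log2 ratios of 1.13 and 0.79. The histamine receptor gene Hrh2, named after its values were seen, stood at 133 and 53.5 units in the knockout and 72 and 22.5 in wild type, just past 2-fold in wild type and just short of it, at a log2 ratio of 0.99, in the knockout. With IL-10, knockout over wild type reached 2-fold for 3 of the 86, Ltb4r1 and P2ry13 among them, where it did for 0.596% of all compared genes, and under mock for none.

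**Figure D3:**
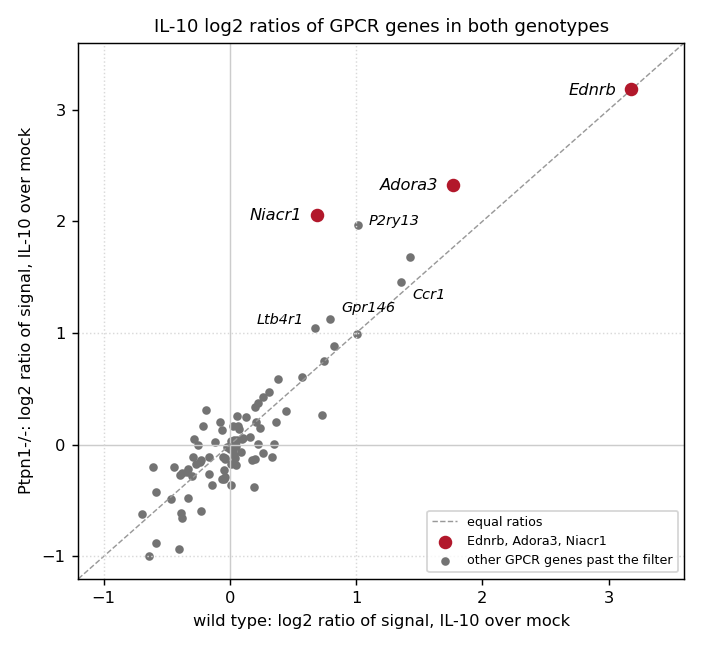
Each point is a gene, with the log2 ratio of signal for IL-10 over mock in wild-type macrophages on the horizontal axis and in Ptpn1-/- macrophages on the vertical axis, and dotted lines at 2-fold. Ednrb lies on the line of equal ratios at 3.17 and 3.18, and Adora3 and Niacr1 lie above it. Most of the 86 other genes of G protein-coupled receptors or of that naming lie near 0.

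The genes most like each receptor were found by the Euclidean distance between profiles of 4 group values, each gene taken as log2 of signal plus pseudocount and centred on its own mean, among 9409 genes with a mean of at least 133.5 units. With 4 points per profile, the likeness is a description. Closest to Ednrb was Socs3, the feedback inhibitor of cytokine signals, at a distance of 0.47, listed at 5021 and 432 units in the knockout with IL-10 and with mock and at 3924.5 and 380.5 in wild type. Tnfsf14, Fgl2, Cd244 and Casp4 came next, at distances of 0.49 to 0.81. Closest to Adora3 was Slc28a2 at 0.24, followed by the potassium channel gene Kcnk13, BC055004, the sphingosine kinase gene Sphk1 and the caspase gene Casp4, at 0.32 to 0.38.

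Closest to Niacr1 was Gbp3, which encodes an interferon-inducible guanylate-binding protein, at a distance of 0.24. It was listed at 854 and 204 units in the knockout with IL-10 and with mock and at 346 and 164 units in wild type. G530011O06Rik, the IL-4 receptor gene Il4ra, Gbp7 and the inhibitory Fc receptor gene Fcgr2b followed at 0.40 to 0.48. Between the receptors themselves the distance was 0.79 for Adora3 and Niacr1, 1.17 for Ednrb and Adora3, and 1.93 for Ednrb and Niacr1. These neighbours depend on the pseudocount for the low genes: with 0.25 ppm, 3 of the 5 were shared for Ednrb, 3 for Adora3 and 1 for Niacr1, and with 4 ppm, 4, 0 and 0.

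**Figure D4:**
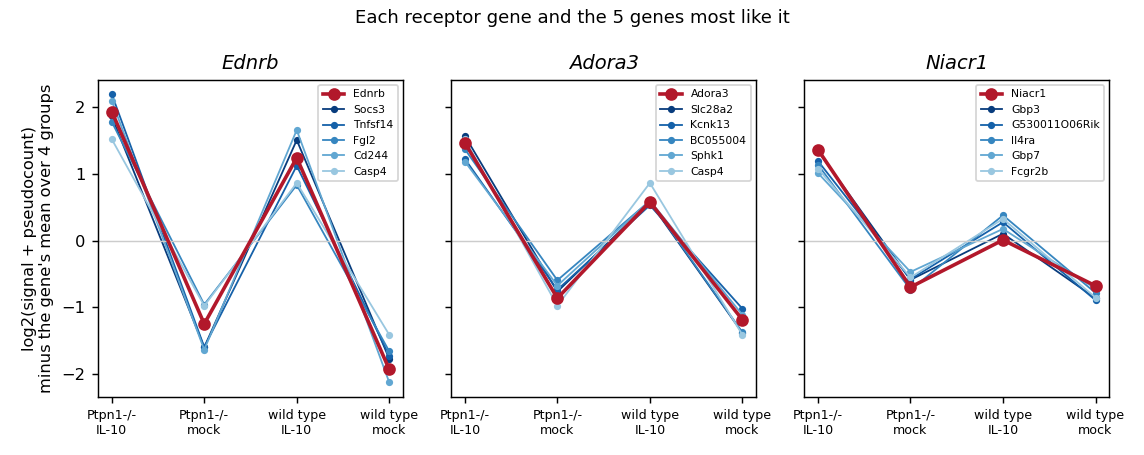
Lines give log2 of signal plus pseudocount minus the gene's own mean over the 4 groups (vertical axis) for each receptor gene and the 5 genes most like it, by group (horizontal axis, where the lines join groups that have no order). Ednrb and Adora3 are low in both mock groups and high in both IL-10 groups, whereas the wild-type IL-10 point of Niacr1 lies at 0.01, its mean over the groups.

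In the IL-10 pathway itself, of 12 listed genes of the receptor chain and its targets 4 were at least 2-fold higher with IL-10 in the knockout (Socs3, Il4ra, Bcl3 and Stat3) and 3 in wild type (Socs3, Il4ra and Bcl3), beside 0.877% and 0.465% of all compared genes. The list includes targets of IL-10 and was chosen with earlier results of these data known, so these counts are a description. Stat3 itself had log2 ratios of 1.20 in knockout cells and 0.99 in wild type and Il4ra 1.87 and 1.16. Bcl3, a regulator of NF-kappaB, stood at 2537 and 803.5 units in the knockout with IL-10 and with mock and at 1862 and 825 in wild type. The receptor chain genes Il10ra and Il10rb had IL-10 log2 ratios of -0.21 and -0.08 in the knockout and -0.14 and -0.04 in wild type.

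A neighbour of Adora3 was also higher with IL-10. I830077J02Rik lies on mm9 chromosome 3, 105728809 to 105735582, on the minus strand, 17538 bases beyond the end of the Adora3 row, and was singled out with its values known. It was listed at 342.5 and 76.5 units in the knockout with IL-10 and with mock and at 239 and 73.5 units in wild type, log2 ratios of 1.84 and 1.41, the 26th and 29th highest. The remaining row within 50 kb of Adora3, Atp5f1, had log2 ratios of -0.02 and 0.20. No other row lay within that distance of Ednrb. Denr and Kntc1, the rows within it of Niacr1, had log2 ratios of 0.24 and 0.31 in the knockout and 0.08 and -0.05 in wild type.

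Other cell types known for these receptors were followed by marker genes. Of 9 endothelial markers, 6 were in the table and their summed signal was 2515.5 and 2203 units in the knockout with IL-10 and with mock and 2496.5 and 2629 in wild type. The defining markers Pecam1 and Cdh5 lay between 7.5 and 23.5 units. Kdr, a receptor for vascular growth factor, stood at 1156 and 504 units in the knockout and 504 and 284.5 in wild type. Vwf, which encodes von Willebrand factor and has the largest share of the sum, went the other way, at 1218 and 1571 units in the knockout and 1890.0 and 2253.5 in wild type. Of 10 mast cell markers, 8 were in the table, with sums of 639 and 547 units in the knockout and 436 and 409 in wild type, and Kit stood between 18 and 46.5 units. The highest were Tpsb2, at 195 and 196.5 units in the knockout and 128 and 122.5 in wild type, and Cma1, at 167 and 137.5 and at 95.5 and 96. Hdc went the other way, at 17 and 19 units in the knockout and 37.5 and 31 in wild type. Under mock Mcpt4, at 18 against 26, and Gata2, at 47 against 48, were also lower in the knockout. Of 11 neutrophil markers, 5 were in the table, with sums of 1365.5 and 1258 units in the knockout and 1185 and 897 in wild type, most of it Mmp8, and S100a9 stood between 7 and 16.5 units. Retnlg was past 2-fold higher in the knockout under both treatments, at 121.5 and 109.5 units against 26.5 and 29.5 in wild type. No adipocyte marker of 5 is among the names. All 5 monocyte markers were in the table, with sums of 1775.5 and 1155.5 units in the knockout and 1385.5 and 814.5 in wild type, a sum higher with IL-10 in both genotypes and higher in the knockout under both treatments. Ccr2, a chemokine receptor of monocytes, and F13a1, a coagulation factor gene, made up most of it, and F13a1 was lower in the knockout than in wild type with IL-10, at 528 and 668.5 units. Ly6c2, a surface marker of inflammatory monocytes, stood at 105.5 and 100.0 units in the knockout and 13.5 and 15 in wild type, and Cd177 at 58.5 and 45 and at 16.5 and 26.5. Of 6 T cell markers, 2 were in the table, with sums of 149 and 39 units in the knockout and 119.5 and 29.5 in wild type. Lck, a kinase of T cells, stood at 128 and 10 units in the knockout and 105 and 11.5 in wild type. Cd2, the other marker found, stood at 21 and 29 units in the knockout and 14.5 and 18 in wild type, while no gene of CD3 is among the names. Of 5 dendritic cell markers, 3 were in the table. Their summed signal was 7628 and 8387.5 units in the knockout against 11294.5 and 12041.5 in wild type. Itgax made up most of it, at 7473 and 8292 units against 11149 and 11934.5, and its IL-10 log2 ratios were -0.15 and -0.10. Those of Zbtb46 were 0.03 and -0.21. Cd209a had 1.26 and 1.43, but at low signal, with 72 and 14.5 units against 61.5 and 6. Both of its mock values lay below the pseudocount of 26.7 units. Eosinophil markers, 2 of 5 in the table, summed to 520.0 and 424.5 units in the knockout and 488.5 and 362.5 in wild type, and B cell markers, 3 of 5, to 122.5 and 119.5 and to 149 and 110.0. The part of these cells in the values of the 3 receptor genes was not tested.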

How the data were processed

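RNA was sequenced from 8 samples of mouse peritoneal macrophages in 4 groups of 2, by genotype and IL-10 treatment. Per the labels' protocols, TRIzol was used for extraction and Illumina's standard protocol for the libraries. The submitters' processing notes name RSEM, Bowtie and the mm9 build but no version or role, and no source used here gives the normalization, annotation or filters. The authors deposited 1 normalized expression signal per gene and group. The deposited values are named CPM, but each column sums to 26705598, so they were treated as signal. All are multiples of 0.5, and 86 of 378 genes with a mean of at least 10000 units have the same value in 2 or more columns; what normalization gave this is not stated in the sources used here, and it makes differences of very high genes coarse. Depth per sample is unknown.

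The planned limma-trend fit, leave-one-out fits and replicate block need a column per sample and were not run; log2 ratios with a pseudocount of 1 ppm (26.7 units) and a limit of 2-fold stood in their place. Genes with a mean under 1 ppm were left out. A name on several rows (38 names) was taken from its highest row. Members and gene lists were chosen with earlier results of these data known. Named genes were the 3 receptors, their listed family members, from each list up to 4 genes past 2-fold with at least 5 ppm in the higher group, or otherwise the 2 largest, and the 5 genes most like each receptor; 1 gene this rule names is not reported here. The set of 86 other genes of G protein-coupled receptors or of that naming joins 3 of the lists with the adenosine receptors. It was formed after values were seen, and 1 of these lists was taken by name only. Lengths came from GENCODE M21 (98.3% of rows) and promoter sequences from RefSeq. The arithmetic of the ratios was checked by putting known fold changes into copies of the wild-type mock values, without noise, for genes with a mean of at least 5 ppm. This check does not cover genes as low as Niacr1 and says nothing of the spread between samples. Python 3.11.15, pandas 2.3.3 and numpy 2.4.6 were used.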

Additional observations from a re-analysis of the deposited data

How the results depend on the processing

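No paired analysis was possible because the table has 1 column per group, and leaving out a replicate was not run for the same reason. The 15 log2 ratios of the 3 receptor genes were recomputed under 8 alternatives; of these, the plain ratio without a pseudocount and the subtraction of the trend over transcript length were chosen after seeing the data. Niacr1 has no value under the filter at 5 ppm. Of 115 recomputed ratios, 111 stayed on the same side of 2-fold and none that was past it changed sign. The remaining 4 were all of Niacr1. Its wild-type IL-10 log2 ratio was 1.20 with a pseudocount of 0.25 ppm and 1.63 with none, past the limit. With 4 ppm its knockout over wild-type ratio with IL-10 was 0.74 and the difference between the genotypes' ratios 0.75, short of it. Ednrb stayed between 3.05 and 3.23 in the knockout and between 2.97 and 3.25 in wild type. Niacr1 in the knockout ranged from just at the limit of 2-fold with 4 ppm to 3.61 without a pseudocount, and Adora3 lay between 1.59 and 2.82 in the knockout and between 1.05 and 2.36 in wild type.

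Counts of all genes past 2-fold moved more. With 0.25 ppm, genes lower with IL-10 were 11 in the knockout and 6 in wild type, knockout over wild type gave 57 higher under mock and 19 lower with IL-10, and the difference between genotypes 19. With 4 ppm these were 1 lower with IL-10 in the knockout, 18 higher and 5 lower under mock, 3 lower with IL-10 between genotypes, and 5 for the difference. The filter at 5 ppm gave 1 lower with IL-10 in the knockout, 6 lower under mock, 5 lower with IL-10 between genotypes and 5 for the difference. Without a pseudocount, IL-10 gave 21 lower in the knockout and 83 higher and 9 lower in wild type, knockout over wild type gave 70 higher and 33 lower under mock and 106 higher and 30 lower with IL-10, and the difference 29. The lower limit of the table, with depth unknown, bounds most of all what can be read from Niacr1.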
